A study of Homo sapiens with 12 samples.

Results

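The comparison described here sets 786-O cells with a knockdown of the 3 JUN genes against the parental line, and rests on 6 of the 12 libraries of the series. 786-O cells come from a human clear cell renal cell carcinoma and have no functional VHL. The shJUNs line carried doxycycline-inducible shRNAs against JUN, JUNB and JUND, the shHIF2A and shYAPTAZ lines carried such shRNAs against HIF2A and against YAP and TAZ, and the parental cells carried none. Each group has 3 libraries, assigned by their labels. The shHIF2A and shYAPTAZ libraries entered the fit. Their levels are given for some genes only, to show whether a change was also seen in another derived line. Where they are not given, a change is not said to be particular to shJUNs. All 12 were grown with doxycycline for 72 hours, the parental cells too. The derived lines had also been selected with puromycin, blasticidin or hygromycin, according to how many genes were silenced. Each knockdown is represented by 1 line, a line with a control shRNA was not analysed, and the labels call the replicates technical. The p-values therefore measure only the spread between these libraries, and effects of the shRNAs cannot be told apart from those of infection, selection or line derivation.

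JUN, JUNB and JUND are the JUN subunits of AP-1, a transcription factor that binds DNA as a dimer of basic leucine zipper proteins. JUN proteins pair with each other or with FOS, FRA, ATF and MAF partners, and the dimers bind short palindromic sites in promoters and, more often, in distal enhancers. AP-1 is switched by growth factor and stress kinases, can activate or repress, and is known in epithelial and carcinoma cells for its part in proliferation, invasion, matrix turnover and inflammation.

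RNA was measured by BRB-seq, which sequences barcoded 3′ ends of polyadenylated RNA. Total counts were 4469956, 3684052 and 4370700 in shJUNs replicates 1 to 3 and 2885287, 3603339 and 3559731 in the parental replicates. Parental replicate 1 stood apart: the chi-squared statistic per degree of freedom, over genes counted at least 20 times, was 9.64 and 13.1 between it and the other parental libraries, against 5.4 between those, and 4.91 to 6.03 among the shJUNs libraries. Levels are CPM, counts scaled by the TMM-normalized library size, and differences are log2 of shJUNs over parental with SE. A gene was called where the p-value of edgeR's quasi-likelihood test, adjusted by Benjamini-Hochberg over the 12301 genes tested, was under 0.05. Of these 1271 (10.3%) were called higher in shJUNs and 1099 (8.93%) lower, 706 (5.74%) and 547 (4.45%) of them by at least 2-fold, and 2370 (19.3%) in either direction. The shJUNs libraries did not overlap the parental ones for 39.5% of the tested genes. Leaving out shJUNs replicate 3 gave 846 higher and 672 lower. Below, where leaving out 1 library ended the call of a gene given with its p-value, or moved a printed fold or a count of list members by more than 1.5 times, that library is named with the value. The renal markers PAX8, PAX2 and CA12 had counts in all 6 libraries, as had the keratins KRT8 and KRT18 and the intermediate filament VIM.

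Genes that mark blood and endothelial cells were at or near 0, and those of fibroblasts and neural cells were not. Summed over 16 blood cell genes the level was 0.271 to 2.01 CPM in shJUNs and 0.833 to 3.47 CPM in parental cells, and 13 of them, PTPRC, CD3E and LYZ included, had no count in the 6 libraries. Summed over 11 endothelial genes it was 0 to 0.895 CPM in shJUNs and 0 to 2.43 CPM in parental cells, with PECAM1 and CDH5 at 0. The 12 fibroblast and pericyte genes summed to 42.6 to 51.0 CPM in shJUNs and 46.1 to 49.9 CPM in parental cells, and none of the 7 tested was called (1 was called lower without parental replicate 3). The 12 neural genes summed to 641 to 714 CPM in shJUNs and 168 to 326 CPM in parental cells, nearly all of it NEFL, a neurofilament subunit, at 685, 616 and 609 CPM in shJUNs, against 160.2, 289.9 and 319.96 CPM in parental cells (log2 difference 1.31 ± 0.20, SE, adjusted p = 0.000193), while STMN2, NEFM and OLIG2 had no count. Of 5 neural genes tested 2 were called higher (40%) and 0 lower, at a median of 1.58, and the number of higher members was 1 without shJUNs replicate 1, 2 or 3 or parental replicate 3. Beside NEFL this was RBFOX3, a neuronal RNA-binding protein, with 8.65, 8.01 and 6.93 CPM in shJUNs, against 1.75, 0.843 and 0.283 CPM in parental cells. RBFOX3 was 8.19-fold higher (log2 difference 3.03 ± 0.89, SE, adjusted p = 0.0176), or 13.2-fold without parental replicate 1, and its call was lost without shJUNs replicate 1, 2 or 3 or parental replicate 2 or 3 (adjusted p = 0.056 to 0.0792). It was above each other group, with 0.201 ± 0.174 CPM in shHIF2A and 0.588 ± 0.76 CPM in shYAPTAZ (adjusted p = 0.00453 for shJUNs against shHIF2A and 0.0109 against shYAPTAZ). SNAP25, a synaptic protein, had 34 counts in shJUNs and 4 in parental cells and was not called (adjusted p = 0.0568). For NEFL the other derived lines had more, 1389 ± 236 CPM in shHIF2A and 2227 ± 287 CPM in shYAPTAZ (adjusted p = 0.00164 for shJUNs against shHIF2A and 8.32e-06 against shYAPTAZ). How far any such expression bears on the results below was not tested.

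All 3 JUN mRNAs were called lower, to very unequal degrees. JUND (ENSG00000130522, chromosome 19, 18279694 to 18281622, hg38) had 39.5, 34.2 and 42 CPM in shJUNs, against 310.3, 390.2 and 366 CPM in parental cells, and JUN (ENSG00000177606, chromosome 1, 58776845 to 58784048) had 78.1, 85.7 and 93 CPM in shJUNs, against 137, 172 and 149.5 CPM in parental cells. For both, every shJUNs library lay below every parental one. The difference was 9.2-fold for JUND (log2 difference -3.20 ± 0.17, SE, adjusted p = 1.41e-11) and 1.79-fold for JUN (log2 difference -0.84 ± 0.18, SE, adjusted p = 0.00215). JUNB (ENSG00000171223, chromosome 19, 12791486 to 12793315) had 103, 111 and 125 CPM in shJUNs, against 97, 213 and 266 CPM in parental cells. The groups overlapped for JUNB, since parental replicate 1 lay below all shJUNs libraries (log2 difference -0.76 ± 0.24, SE, adjusted p = 0.034), and its call ended without shJUNs replicate 1, 2 or 3 or parental replicate 2 or 3 (adjusted p = 0.0619 to 0.2). Of the 3 genes JUND alone was called lower in shJUNs than in each other group, the other lines having 220.1 ± 43.2 CPM in shHIF2A and 170.04 ± 4.18 CPM in shYAPTAZ (adjusted p = 1.61e-09 for shJUNs against shHIF2A and 4.59e-09 against shYAPTAZ). JUN was at 80.2 ± 0.583 CPM in shHIF2A, a level not called different from that of shJUNs (adjusted p = 0.824).

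None of the other AP-1 subunits tested was called higher. Of 12 tested subunits outside the targeted trio 0 were called higher and 4 lower, 0% and 33.3%, with a median log2 difference of -0.58 against 0.00 over all tested genes. MAFF, a small MAF protein without an activation domain, had 2.88, 3.2 and 2.01 CPM in shJUNs, against 27.6, 34 and 35 CPM in parental cells. That is 11.8-fold lower with no overlap (log2 difference -3.57 ± 0.57, SE, adjusted p = 0.000113). ATF3, a stress-induced partner of JUN, was 3.43-fold lower at 9.14 ± 2.19 CPM in shJUNs and 31.4 ± 6.37 CPM in parental cells (adjusted p = 0.00341, SD over n = 3 libraries here and below). MAF and ATF2 were 2.11-fold and 1.63-fold lower (adjusted p = 0.0102 and 0.0264). These calls were the weaker ones: MAF was lost without parental replicate 1 (adjusted p = 0.056), and ATF2 without shJUNs replicate 1 or 2 or parental replicate 1 (adjusted p = 0.0823 to 0.145). The number of lower members was 2 without parental replicate 1. MAFF was also low in the other derived lines, at 5.44 ± 5.0 CPM in shHIF2A and 7.48 ± 4.97 CPM in shYAPTAZ, and no direct difference of shJUNs from them was called (adjusted p = 0.364 for shJUNs against shHIF2A and 0.0761 against shYAPTAZ).

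Genes commonly listed as AP-1 targets moved both ways, 5 of 33 higher and 6 lower (15.2% and 18.2%), with a median of -0.06. The phosphatase gene DUSP1, which switches off MAP kinases, had 83.7, 100.1 and 96.8 CPM in shJUNs, against 451, 475 and 339.8 CPM in parental cells, 4.51-fold lower without overlap (log2 difference -2.17 ± 0.20, SE, adjusted p = 1.11e-07). IER3, TGFB1, EGFR, UPP1 and ETS1 were lower as well, IER3 by 2.83-fold (adjusted p = 0.00113) and the ligand gene TGFB1 by 3.32-fold (adjusted p = 7.59e-05). On the other side HMOX1, which degrades haem, was 2.63-fold higher at 61 ± 3.58 CPM in shJUNs and 23.2 ± 1.45 CPM in parental cells (adjusted p = 5.91e-05). ANXA1, PHLDA1, NQO1 and S100A2 were also higher, by 0.62 to 1.01 on the log2 scale. With the genes of chromosomes 9, 12, 14, 15, 16 and 22 left out, which carry shifts described below, the number of targets called higher was 1.

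**Figure D1:**
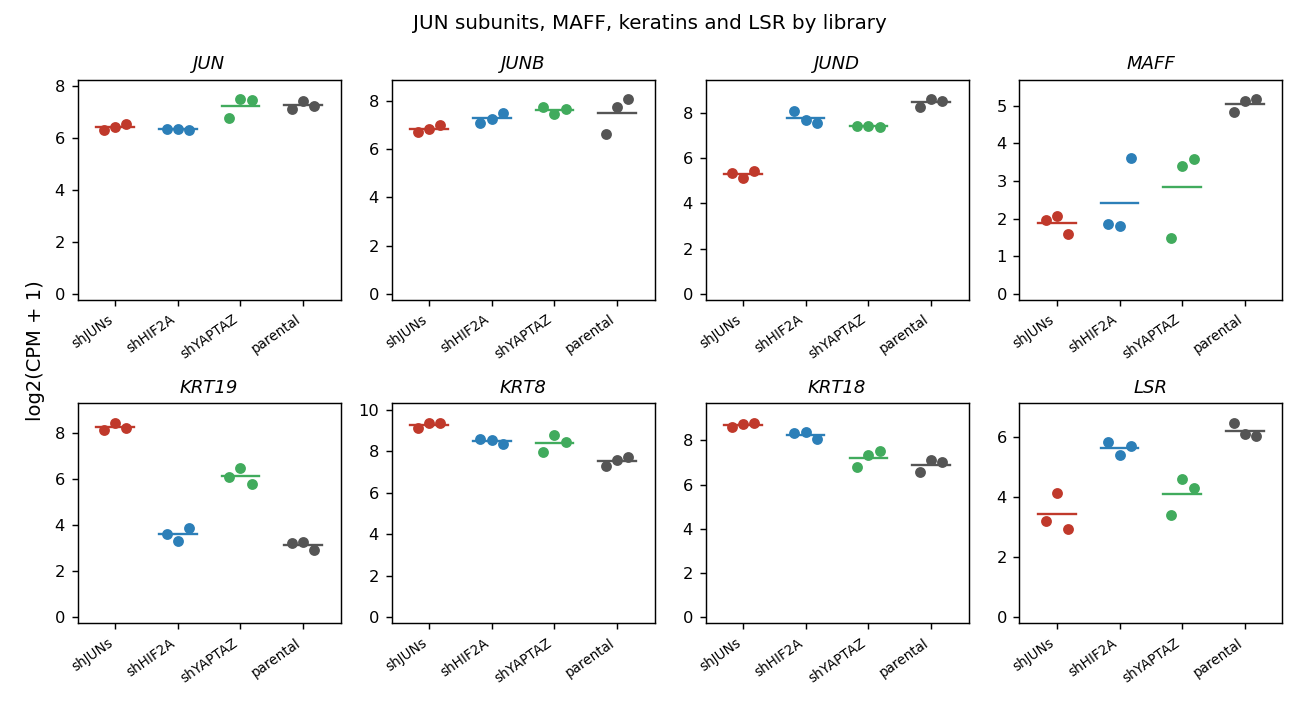
Levels of the JUN subunits, MAFF, keratins and LSR in all 12 libraries, as log2(CPM + 1); points are libraries and lines are group means, with shJUNs at the left and parental cells at the right of each panel. JUND and MAFF of shJUNs lay below all parental libraries, KRT19, KRT8 and KRT18 above them, and for JUNB parental replicate 1 lay below shJUNs.

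A small set of genes was expressed in one group and silent in the other. A gene was counted as switched when it was called, had a mean of at least 5 CPM in one group and at most 3 counts over the 3 libraries of the other. By this rule 21 genes (0.171% of those tested) were switched on in shJUNs and 11 (0.0894%) switched off. No library of one group overlapped the other for any of them, which the rule itself makes likely. Such counts are at the detection floor, and folds are therefore given as bounds or as count ratios with exact intervals that cover counting error only. The numbers moved with depth and single libraries: 43, 55 and 41 genes were switched on without parental replicate 1, 2 or 3, and 22, 18 and 20 switched off without shJUNs replicate 1, 2 or 3.

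SATB1, an organiser of chromatin loops best known in thymocytes (ENSG00000182568, chromosome 3, 18345377 to 18445621), had 17.1, 20.3 and 13.4 CPM in shJUNs and no count in parental cells, at least 55.5-fold higher (adjusted p = 4.51e-07). ITGA4, the α4 integrin chain that binds VCAM1 and fibronectin (ENSG00000115232, chromosome 2, 181457202 to 181538940), had 7.99, 12.8 and 6.26 CPM in shJUNs and no count in parental cells, at least 29.2-fold higher (adjusted p = 0.000624). The transporter gene ABCC6 was the other with no parental count. It had 2.44, 16.6 and 3.8 CPM in shJUNs, most of it in replicate 2, and is at least 23.5-fold higher over the group. CENPV, a centromere-associated protein, had 332 counts in shJUNs and 1 in parental cells, a ratio of 259.7 (95% interval 46.3 to 10290). HNMT, which inactivates histamine by methylation, had 261 counts in shJUNs and 1 in parental cells, a ratio of 204 (95% interval 36.3 to 8095). Both were even over the shJUNs libraries, CENPV at 28.2, 23.5 and 26.1 CPM and HNMT at 21.3, 19.2 and 20.8 CPM. ARHGDIB, a GDP dissociation inhibitor of small GTPases, mostly known from blood cells, had 270 counts in shJUNs and 2 in parental cells at a ratio of 106 (95% interval 29 to 876), while the pan-leukocyte gene PTPRC had none. PAPLN, a matrix protein related to ADAMTS proteases, had 332 counts in shJUNs and 3 in parental cells at a ratio of 86.6 (95% interval 29.4 to 422), and GALNT5, an enzyme that starts O-glycosylation, 182 counts in shJUNs and 3 in parental cells at a ratio of 47.5 (95% interval 16 to 232). Single libraries moved the fitted folds, which at such counts depend on the prior count: CENPV was at 189.5-fold, or 735-fold without parental replicate 1, and HNMT at 149-fold, or 579-fold without parental replicate 1, since the only parental count of each lay in replicate 1. PAPLN was at 76.3-fold, or 134-fold without parental replicate 3, GALNT5 at 42.3-fold, or 82.1-fold without parental replicate 1, and ABCC6 at 211-fold, or 87.4-fold without shJUNs replicate 2. The others were IFI44L, CLIC3, CRACR2A, ADGRG2, ADSS1, FAM50B, IGFBP1, NAP1L5, SEMA3E, TRPC4, ZXDA and 2 antisense genes, ENSG00000228509 and ENSG00000251257, at means of 5.22 to 15.2 CPM. Calls for ADSS1 and IGFBP1 were lost without shJUNs replicate 1 (adjusted p = 0.134) and without shJUNs replicate 3 (adjusted p = 0.0567).

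LEF1, a DNA-binding partner of β-catenin (ENSG00000138795, chromosome 4, 108047545 to 108168956), was not counted once in the 3 shJUNs libraries and had 14.3, 12.7 and 18.4 CPM in the parental ones, at least 64.3-fold lower (adjusted p = 3.87e-07). AUTS2, a Polycomb-associated gene of neurodevelopment, and SNTG1, a syntrophin, had no count in shJUNs either, against 5.24, 3.94 and 7.63 CPM and 19.5, 7.87 and 8.48 CPM in parental cells, at least 23.9-fold and at least 48.6-fold lower. IGFL3, a secreted IGF-like protein (ENSG00000188624, chromosome 19, 46120067 to 46124688), had 1 count in shJUNs and 385 in parental cells, which puts it 492 times lower (95% interval 87.8 to 19490). The long noncoding RNA IGFL2-AS1 from the same chromosome 19 cluster had 2 counts in shJUNs and 173 in parental cells. DENND2A, an exchange factor for Rab GTPases, had 2 counts in shJUNs and 270 in parental cells, and CHST9, a sulfotransferase of N-acetylgalactosamine, 3 counts in shJUNs and 259 in parental cells. Fitted falls again moved with single libraries, IGFL3 at 338-fold, or 1050-fold without shJUNs replicate 3, IGFL2-AS1 at 91.3-fold, or 475-fold without shJUNs replicate 1, DENND2A at 144-fold, or 777-fold without shJUNs replicate 2, and CHST9 at 97.5-fold, or 181-fold without shJUNs replicate 2. CCDC152, SEMA6B, SLAMF7 and TRO completed the set with 1 to 3 counts in shJUNs and 53 to 69 in parental cells.

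Across the other derived lines the switched genes split. Of the 21 switched on, 14 were also called higher in shJUNs than in shHIF2A, 6 higher than in shYAPTAZ and 3 higher than in both, namely ARHGDIB, GALNT5 and ITGA4. Over all tested genes 4.36% and 8.27% were called higher than in shHIF2A and in shYAPTAZ, in comparisons that share the shJUNs libraries with the rule. shYAPTAZ had at least 5 CPM of 10 of them, SATB1 at 43.2 ± 19.7 CPM, CENPV at 15 ± 2.6 CPM and HNMT at 17.3 ± 5.68 CPM among them. Of the 11 switched off, 9 were called lower than in shHIF2A, 8 lower than in shYAPTAZ and 6 lower than in both, beside 3.17% and 7.87% of all tested genes. LEF1 was one of the 6, with 20.9, 9.98 and 8.06 CPM in shHIF2A and 19.1, 15.6 and 16.4 CPM in shYAPTAZ. SNTG1 was not one of them, and shYAPTAZ had no count of it either. AUTS2 was highest in shYAPTAZ, at 52.3 ± 10.4 CPM.

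**Figure D2:**
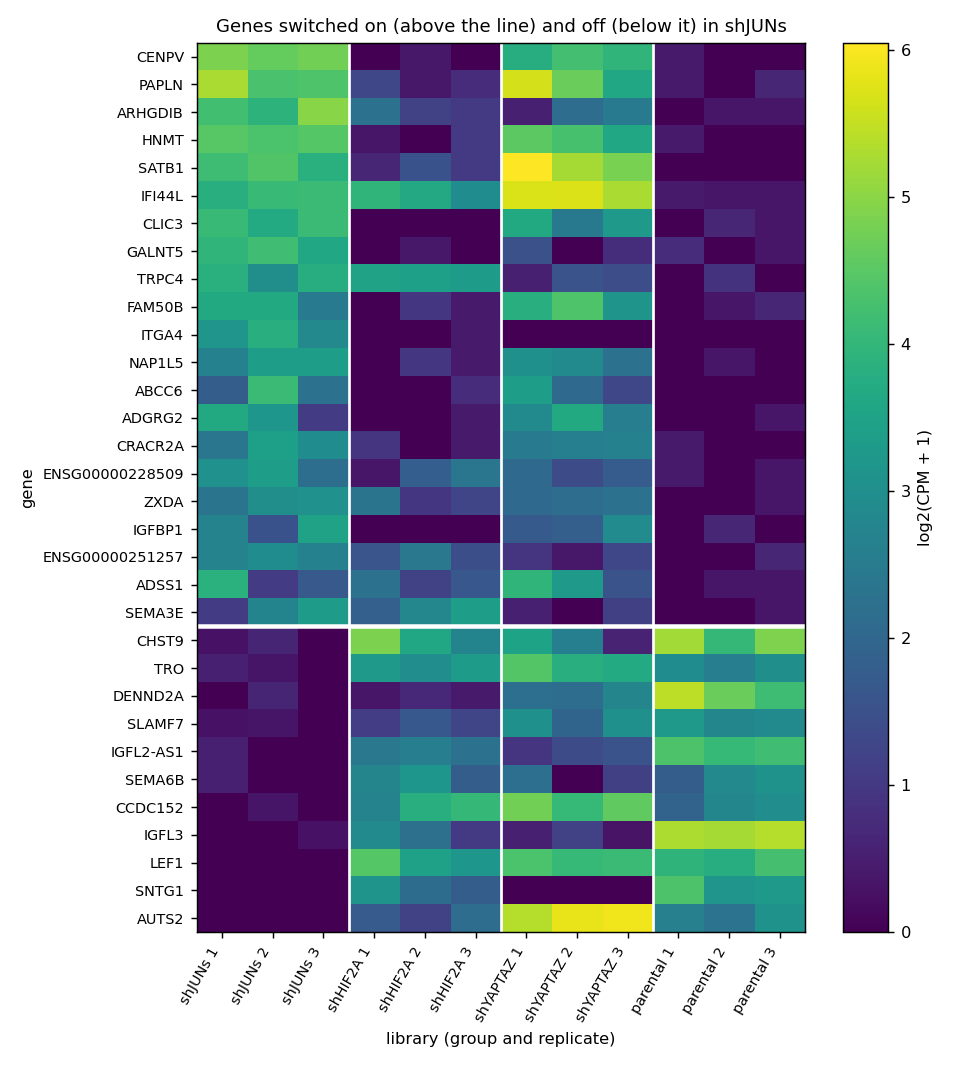
Genes switched on (upper block) and off (lower block) in shJUNs, with a column for each of the 12 libraries and colour giving log2(CPM + 1). Parental libraries are near 0 in the upper block and shJUNs libraries near 0 in the lower one, while the shHIF2A and shYAPTAZ columns vary from gene to gene.

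Below that level of change came genes with a low but counted parental level. CEMIP, which cuts hyaluronan, had 35.1, 28.6 and 40.5 CPM in shJUNs, against 0.349, 0.562 and 0.283 CPM in parental cells, and CHRDL1, a secreted BMP antagonist, had 46.6, 40.9 and 48.9 CPM in shJUNs, against 0.349, 1.12 and 0.283 CPM in parental cells. TRIM55, a muscle ubiquitin ligase, had 408, 455 and 486 CPM in shJUNs, against 8.03, 10.4 and 9.33 CPM in parental cells. In all 3 the groups were far apart, 48.1-fold for TRIM55 (log2 difference 5.59 ± 0.38, SE, adjusted p = 7.95e-08). For CHRDL1 the fold was 71.5-fold, or 131-fold without parental replicate 2, and TRIM55 had 148, 185 and 187 CPM in shHIF2A and 41.3, 44.6 and 124 CPM in shYAPTAZ. Reads at the MIR30A locus (ENSG00000207827, chromosome 6, 71403551 to 71403621) gave 39.5, 37.4 and 25.7 CPM in shJUNs, against 0.698, 0.843 and 0.283 CPM in parental cells (log2 difference 5.74 ± 0.46, SE, adjusted p = 8.79e-09). They come from polyadenylated RNA and do not measure the mature miRNA, which is printed to identify it, with its seed (bases 2 to 8) in capitals.
hsa-miR-30a-5p: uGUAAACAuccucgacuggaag
Among the deepest falls TRPM2, a calcium channel, had 0.444, 0.267 and 0.223 CPM in shJUNs, against 34.2, 22.2 and 17 CPM in parental cells, and MYEOV, a gene of the 11q13 amplicon, 2.66, 7.21 and 6.48 CPM in shJUNs, against 148, 112 and 118 CPM in parental cells. Neither overlapped. MYEOV was low in the other derived lines too, 1.66 ± 1.47 CPM in shHIF2A and 1.46 ± 1.04 CPM in shYAPTAZ (adjusted p = 0.0787 for shJUNs against shHIF2A and 0.034 against shYAPTAZ).

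The classical AP-1 site was searched in promoter windows, 250 bases before to 50 after the first listed start of a gene in RefSeq (GRCh38.p14). The motif was TGANTCA, which reads the same on both strands. It was present in 425 of 9525 windows of tested genes (4.46%), in 69 of 1021 of genes called higher (6.76%) and in 32 of 877 of genes called lower (3.65%). Among genes at least 2-fold higher the share was 8.52%, and among those at least 2-fold lower 4.31%. It was 7.76% over all 27305 promoters of the table. Among named genes with a window, 152 of 209, it occurred in at least 11. Not all of these windows were covered by that count. The windows of HNMT, switched on, of IGFL3 and CCDC152, switched off, and of TNFAIP6, a hyaluronan-binding gene described below, are shown because they hold a match, 5′ to 3′ on the strand of the gene, with the match in capitals.
HNMT, chr2:137964223-137964522, + strand: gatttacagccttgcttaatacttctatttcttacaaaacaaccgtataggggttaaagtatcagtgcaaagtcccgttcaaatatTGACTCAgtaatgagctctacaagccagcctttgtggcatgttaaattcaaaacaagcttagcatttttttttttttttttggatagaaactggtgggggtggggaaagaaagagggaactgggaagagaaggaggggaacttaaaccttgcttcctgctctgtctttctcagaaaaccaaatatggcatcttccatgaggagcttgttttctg
IGFL3, chr19:46124639-46124938, - strand: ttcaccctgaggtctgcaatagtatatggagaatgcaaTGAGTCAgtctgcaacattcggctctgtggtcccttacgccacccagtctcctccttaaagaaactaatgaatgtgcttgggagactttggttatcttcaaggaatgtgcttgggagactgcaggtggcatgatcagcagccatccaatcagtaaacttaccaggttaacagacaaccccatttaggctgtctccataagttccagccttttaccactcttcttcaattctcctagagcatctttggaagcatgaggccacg
CCDC152, chr5:42756568-42756867, + strand: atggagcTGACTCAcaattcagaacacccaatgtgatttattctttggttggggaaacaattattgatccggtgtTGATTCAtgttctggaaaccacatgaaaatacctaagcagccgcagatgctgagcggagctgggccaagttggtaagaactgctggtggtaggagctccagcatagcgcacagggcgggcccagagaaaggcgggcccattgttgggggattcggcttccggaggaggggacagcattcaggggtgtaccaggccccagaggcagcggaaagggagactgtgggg
TNFAIP6, chr2:151357342-151357641, + strand: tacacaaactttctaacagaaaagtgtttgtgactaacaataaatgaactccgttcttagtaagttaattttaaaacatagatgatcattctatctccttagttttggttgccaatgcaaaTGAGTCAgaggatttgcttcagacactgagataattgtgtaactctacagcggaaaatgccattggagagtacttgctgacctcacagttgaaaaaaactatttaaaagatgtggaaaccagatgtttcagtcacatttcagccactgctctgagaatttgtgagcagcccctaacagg
The match starts 164 bases before the start of HNMT, 212 before that of IGFL3, 243 and 175 before that of CCDC152 and 129 before that of TNFAIP6. Genes with a match thus lay on both sides of the comparison. A match is a run of letters, and binding was not measured.

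Among epithelial genes the keratins of simple epithelia were higher, while junction genes went both ways. Of 8 keratins tested 3 were called higher and 0 lower, 37.5% and 0%. KRT19, the smallest keratin (ENSG00000171345, chromosome 17, 41523617 to 41528308), had 278, 341 and 296 CPM in shJUNs, against 8.38, 8.72 and 6.5 CPM in parental cells. All shJUNs libraries were far above all others, 38.7-fold over parental cells (log2 difference 5.27 ± 0.24, SE, adjusted p = 5.13e-13), with 11.3 ± 2.31 CPM in shHIF2A and 69.2 ± 16.5 CPM in shYAPTAZ. KRT8 and KRT18, which pair into filaments, lie side by side on chromosome 12. KRT8 had 560.5, 659 and 659 CPM in shJUNs, against 155, 192 and 209.7 CPM in parental cells (3.37-fold, adjusted p = 1.39e-07), and KRT18 had 385, 424 and 441 CPM in shJUNs, against 92.8, 136 and 128 CPM in parental cells (3.49-fold, adjusted p = 2.27e-07). Neither overlapped. KRT18 of shHIF2A, 305 ± 31.4 CPM, was not called different from shJUNs (adjusted p = 0.123). KRT8 was at 362 ± 33.5 CPM in shHIF2A and 347 ± 93.3 CPM in shYAPTAZ, between shJUNs and parental cells.

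Of 36 junction and polarity genes 8 were higher and 4 lower, 22.2% and 11.1%, at a median of -0.16. The number of higher members was 5 without shJUNs replicate 1, 3 without shJUNs replicate 2 and 4 without shJUNs replicate 3 or parental replicate 3, and that of lower members 2 without shJUNs replicate 1 or parental replicate 3. SPINT2, an inhibitor of epithelial serine proteases, had 146, 151 and 112 CPM in shJUNs, against 43.6, 42.7 and 39.9 CPM in parental cells, 3.24-fold higher (adjusted p = 8.13e-07). MAL2, a protein of apical transport, and GJB2, the gap junction protein connexin 26, were higher at 28.5 ± 3.39 CPM in shJUNs and 10.7 ± 1.55 CPM in parental cells and at 10.6 ± 3.06 CPM in shJUNs and 2.09 ± 1.17 CPM in parental cells (adjusted p = 0.00153 for MAL2 and 0.00204 for GJB2). LSR, which builds tricellular junctions, had 8.21, 16.6 and 6.7 CPM in shJUNs, against 87.6, 66.9 and 64.2 CPM in parental cells. It was 7.0-fold lower without overlap (log2 difference -2.81 ± 0.32, SE, adjusted p = 1.86e-06). DSC2, a desmosomal cadherin, had 1 count in shJUNs and 34 in parental cells (adjusted p = 0.00243). Calls of PERP, PKP4 and NECTIN3 did not hold when single libraries were left out. PERP was lost without shJUNs replicate 1, 2 or 3 or parental replicate 1, 2 or 3 (adjusted p = 0.0558 to 0.168), PKP4 without shJUNs replicate 1 or parental replicate 3 (adjusted p = 0.0601 to 0.0959) and NECTIN3 without shJUNs replicate 2 or 3 or parental replicate 3 (adjusted p = 0.0589 to 0.0706).

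Of 16 cadherins and EMT transcription factors 3 were higher and 1 lower, 18.8% and 6.25%, at a median of -0.02. CDH6, the K-cadherin of the kidney tubule, had 247, 216 and 234 CPM in shJUNs, against 78.2, 68 and 80.6 CPM in parental cells and was 3.07-fold higher (adjusted p = 0.00909). Its call was lost without parental replicate 1 (adjusted p = 0.0606). CDH13, a cadherin without a membrane span, had 18.6, 24.3 and 23.9 CPM in shJUNs, against 2.79, 4.5 and 3.11 CPM in parental cells and was 6.32-fold higher (adjusted p = 1.93e-05). ZEB2, a repressor of epithelial genes, had 27.8 ± 5.78 CPM in shJUNs and 50.04 ± 8.08 CPM in parental cells (adjusted p = 0.036), a call lost without shJUNs replicate 1, 2 or 3 or parental replicate 1, 2 or 3 (adjusted p = 0.0531 to 0.165). PCDH7 was called higher but was lost without shJUNs replicate 1, 2 or 3 or parental replicate 1 or 2 (adjusted p = 0.0657 to 0.131). Higher members numbered 1 without parental replicate 1, and that of lower members 0 without shJUNs replicate 1, 2 or 3 or parental replicate 1, 2 or 3.

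Matrix genes moved in both directions, with rises in the majority. Of 19 collagens 5 were higher and 2 lower (26.3% and 10.5%, median 0.36), of 13 laminin and basement membrane genes 2 and 1 (15.4% and 7.69%, median 0.31), and of 56 matrix glycoproteins and proteoglycans 18 and 8 (32.1% and 14.3%, median 0.31). The number of lower collagens was 1 without shJUNs replicate 2 or 3 and 0 without parental replicate 1. The lower basement membrane gene was TINAGL1, at 123 ± 22.7 CPM in shJUNs and 187 ± 16.7 CPM in parental cells (adjusted p = 0.0264), a call lost without shJUNs replicate 2 or 3 or parental replicate 1 or 2 (adjusted p = 0.0641 to 0.155), which left 0 lower. COL4A1 and COL4A2, the chains of the common collagen IV trimer of basement membranes, share a promoter region on chromosome 13. COL4A1 had 874, 839 and 799 CPM in shJUNs, against 358, 284 and 286 CPM in parental cells, and COL4A2 had 298, 303 and 299 CPM in shJUNs, against 165, 146 and 137 CPM in parental cells. Neither overlapped, and they were 2.71-fold and 2.01-fold higher (adjusted p = 1.91e-06 and 0.000234). COL5A2, a fibrillar chain (ENSG00000204262, chromosome 2, 189031898 to 189225312), had 23.5, 33.4 and 20.1 CPM in shJUNs, against 0.698, 1.97 and 1.41 CPM in parental cells. It was 18-fold higher (log2 difference 4.17 ± 0.51, SE, adjusted p = 4.11e-06) and also above the other derived lines, which had 3.53 ± 1.05 CPM in shHIF2A and 2.6 ± 0.302 CPM in shYAPTAZ (adjusted p = 0.000318 for shJUNs against shHIF2A and 4.13e-05 against shYAPTAZ). COL6A1 and COL14A1 were the other rises. COL7A1, the anchoring fibril collagen, was 1.81-fold lower (adjusted p = 0.0078, a call lost without parental replicate 1 (adjusted p = 0.066)), and COL13A1 had 3 counts in shJUNs and 32 in parental cells (adjusted p = 0.0173), a call lost without shJUNs replicate 2 or 3 or parental replicate 1 (adjusted p = 0.056 to 0.12).

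TNC, tenascin C, had the smallest p-value of the named genes (ENSG00000041982, chromosome 9, 115019575 to 115118207). Its levels were 243, 222 and 256 CPM in shJUNs, against 7.33, 7.31 and 9.04 CPM in parental cells. The difference was 30.2-fold (log2 difference 4.92 ± 0.21, SE, adjusted p = 3.41e-13), with 69.4 ± 13.5 CPM in shHIF2A and 247 ± 33.3 CPM in shYAPTAZ. SRPX, a sushi-repeat protein, had 37.9, 59.3 and 43.4 CPM in shJUNs, against 4.89, 4.5 and 2.54 CPM in parental cells (11.8-fold, adjusted p = 2.11e-07), and CRIM1, a membrane protein that binds BMPs, 446, 413 and 384 CPM in shJUNs, against 196, 168 and 168 CPM in parental cells (2.34-fold, adjusted p = 1.4e-06). Both were higher without overlap. Also higher were FN1, FBN1, THBS1, the fibulins EFEMP1 and EFEMP2, the syndecans SDC3 and SDC4, IGFBP4, IGFBP6 and IGFBP7, and the heparan sulfate enzymes HS3ST1, HS6ST2 and SULF2. SRGN, serglycin, the core proteoglycan of secretory granules, had 0.666, 0.267 and 0.447 CPM in shJUNs, against 17.5, 26.1 and 31.7 CPM in parental cells. That was 49.8-fold lower, with 14.5 ± 1.51 CPM in shHIF2A and 64.7 ± 0.252 CPM in shYAPTAZ (adjusted p = 1.25e-07 for shJUNs against shHIF2A and 4.5e-11 against shYAPTAZ). The syndecan SDC2 had 104, 110.03 and 112 CPM in shJUNs, against 259, 243 and 249 CPM in parental cells, 2.3-fold lower (adjusted p = 7.42e-06). IGFBP3 was 2.29-fold lower (adjusted p = 0.000347), from a parental spread of 3453, 2009 and 1697 CPM. CHST3 and CHSY3, enzymes of chondroitin sulfate, were lower, as was the sulfotransferase gene CHST9 given above. The count of lower members was 5 without shJUNs replicate 1 or 3 or parental replicate 1.

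Proteases and their inhibitors were called 10 higher and 7 lower of 45 (22.2% and 15.6%). MMP2, gelatinase A, had 56.8, 59.3 and 51.6 CPM in shJUNs, against 6.98, 8.15 and 9.61 CPM in parental cells, 6.71-fold higher without overlap (log2 difference 2.75 ± 0.24, SE, adjusted p = 4.98e-08). The other derived lines had 8.08 ± 0.871 CPM in shHIF2A and 471 ± 166 CPM in shYAPTAZ (adjusted p = 1.19e-07 for shJUNs against shHIF2A and 5.4e-10 against shYAPTAZ), so that shYAPTAZ was higher than shJUNs. TFPI2, an inhibitor of plasmin and matrix proteases, had 516, 549 and 649 CPM in shJUNs, against 96.7, 153 and 136 CPM in parental cells (4.44-fold, adjusted p = 5.53e-08). ADAMTS5, an aggrecanase, had 10.4, 5.88 and 4.02 CPM in shJUNs, against 25.8, 36.8 and 30.8 CPM in parental cells and was 4.57-fold lower (adjusted p = 5.91e-05). It was below each other group, with 62.7 ± 20.7 CPM in shHIF2A and 40.2 ± 9.11 CPM in shYAPTAZ (adjusted p = 1.22e-06 for shJUNs against shHIF2A and 9.56e-06 against shYAPTAZ). The cathepsins CTSK, CTSH, CTSV and CTSZ were lower and CTSS higher. Of the 9 matrix metalloproteinase genes tested MMP2 and MMP16 were called, and the collagenases MMP1 and MMP13, named here outside the rule for named genes as classical AP-1 targets, were not, at log2 differences of -1.60 and 0.34 (adjusted p = 0.283 and 0.503).

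Enzymes that modify and crosslink collagen were called lower more often than higher, with 3 of 19 higher and 7 lower (15.8% and 36.8%, median -0.23). The lower ones were the lysyl hydroxylase gene PLOD2, the prolyl hydroxylase genes P4HA1, P4HA2 and P3H1, COLGALT1, LOXL2 and TGM2. LOXL2 had 190.2, 174 and 160.01 CPM in shJUNs, against 484, 366 and 343 CPM in parental cells (2.27-fold lower, adjusted p = 0.00396), and COLGALT1 had 155, 171 and 161 CPM in shJUNs, against 277, 292 and 274 CPM in parental cells (1.73-fold lower, adjusted p = 0.000175). Neither overlapped. SERPINH1, the collagen chaperone HSP47, was higher at 65.7, 69.97 and 94.1 CPM in shJUNs, against 21.6, 14.1 and 16.1 CPM in parental cells (4.46-fold, adjusted p = 5.53e-08). PLOD2 was lost without shJUNs replicate 3 or parental replicate 1 (adjusted p = 0.0723 to 0.0744). The count of lower members was 4 without shJUNs replicate 1 or 3 or parental replicate 1 or 2. Of 8 hyaluronan genes 4 were higher and 0 lower, 50% and 0%. They were CEMIP, CEMIP2 and HYAL2, which cut hyaluronan or are related to such enzymes, and TNFAIP6, which transfers heavy chains onto it. TNFAIP6 had 28.2, 19 and 18.1 CPM in shJUNs, against 2.44, 7.87 and 3.11 CPM in parental cells (adjusted p = 0.00334), with 1.56 ± 1.11 CPM in shHIF2A and 2.52 ± 0.763 CPM in shYAPTAZ. The fold of TNFAIP6 was 4.78-fold, or 7.71-fold without parental replicate 2.

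Most called integrin and actin genes were higher in shJUNs. Of 13 integrin chains 5 were higher and 2 lower, 38.5% and 15.4%, at a median of 0.66. ITGA3, a laminin receptor chain, had 502, 539 and 539.9 CPM in shJUNs, against 269, 269 and 257 CPM in parental cells. The groups were apart by 1.99-fold (adjusted p = 2.1e-05), and shJUNs was also above the other lines, which had 249 ± 42 CPM in shHIF2A and 190.1 ± 17.3 CPM in shYAPTAZ (adjusted p = 2.1e-05 for shJUNs against shHIF2A and 1.21e-07 against shYAPTAZ). ITGAV and its partner chain ITGB6 were 1.58-fold and 4.25-fold higher (adjusted p = 0.00243 and 0.0049). ITGB8, another partner of ITGAV, had 18.2, 20.03 and 12.7 CPM in shJUNs, against 101, 128 and 142 CPM in parental cells, 7.28-fold lower (log2 difference -2.86 ± 0.24, SE, adjusted p = 1.65e-08). ITGB5, also a partner of ITGAV, had 179, 172 and 171 CPM in shJUNs, against 534, 481 and 452 CPM in parental cells and was 2.81-fold lower (adjusted p = 4.29e-08). Neither of these overlapped.

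Of 89 actin and focal adhesion genes 38 were higher and 8 lower, 42.7% and 8.99%, with a median of 0.40. The number of lower members was 5 without shJUNs replicate 1 or 2 or parental replicate 1 or 2 and 4 without shJUNs replicate 3. MYL9, the regulatory light chain of contractile myosin, had 375, 385 and 351 CPM in shJUNs, against 40.8, 67.2 and 66.1 CPM in parental cells, 6.35-fold higher (log2 difference 2.67 ± 0.19, SE, adjusted p = 1.85e-09). The other derived lines lay between, at 226 ± 41.1 CPM in shHIF2A and 192 ± 28.9 CPM in shYAPTAZ. TGFB1I1, the focal adhesion protein HIC-5, had 29.7, 28.8 and 31.1 CPM in shJUNs, against 1.4, 0.281 and 0.565 CPM in parental cells (adjusted p = 6.21e-08). ACTG1, cytoplasmic γ-actin, had 8041, 7951 and 8782 CPM in shJUNs, against 2954, 3258 and 3734 CPM in parental cells (2.49-fold, adjusted p = 4.98e-07). All 3 were without overlap, and TGFB1I1 had 381 counts in shJUNs and 7 in parental cells, 40.2-fold, or 65.2-fold without parental replicate 1. LIMA1, which crosslinks actin, was 5.7-fold higher at 148 ± 15.9 CPM in shJUNs and 25.8 ± 13.2 CPM in parental cells (adjusted p = 5.96e-07). For LIMA1 too the other derived lines lay between, at 64.6 ± 12.4 CPM in shHIF2A and 73.7 ± 15.6 CPM in shYAPTAZ. The rises took in TAGLN, ACTA2, CNN2, CALD1, FLNA, VCL, ZYX, ACTN1 and ACTN4, the tropomyosins TPM3 and TPM4, and CAV1, CAV2 and CAVIN1 of caveolae. SYNPO, a regulator of stress fibres, was the largest fall at 84.3, 98.8 and 72 CPM in shJUNs, against 417, 349 and 268 CPM in parental cells (4.06-fold, adjusted p = 4.87e-05). FSCN1, fascin, which bundles filopodia, was 1.41-fold lower (adjusted p = 0.0104), a call lost without shJUNs replicate 2 (adjusted p = 0.056).

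**Figure D3:**
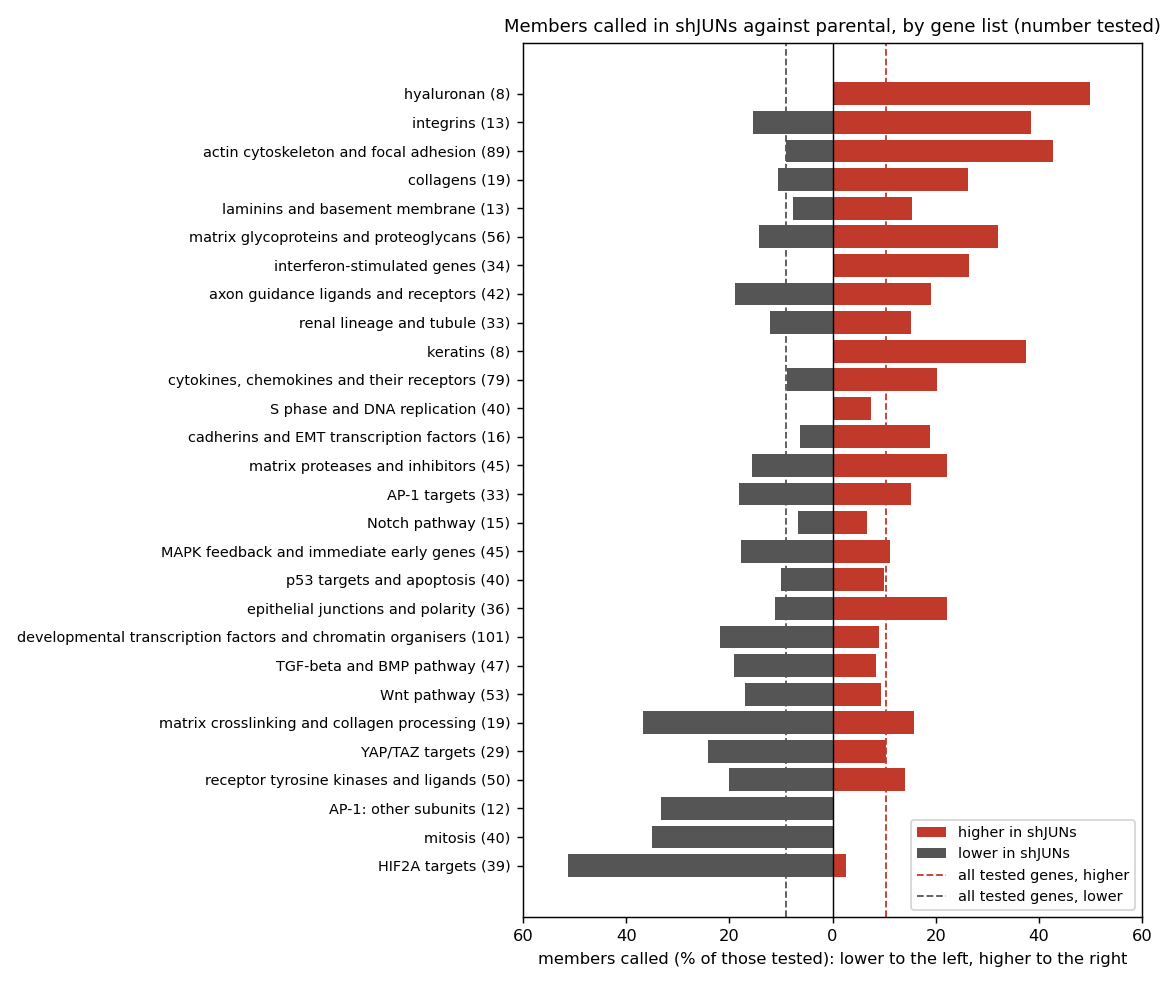
Share of tested members called higher (bars to the right) and lower (bars to the left) in shJUNs against parental cells for each gene list with at least 8 tested members, ordered by median log2 difference, with the number tested in brackets; dashed lines give the shares over all tested genes, 10.3% higher and 8.93% lower. Actin genes reach 42.7% higher, HIF2A targets 51.3% lower.

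In the Wnt pathway 5 of 53 genes were higher and 9 lower, 9.43% and 17%, with a median of -0.19. The number of higher members was 3 without shJUNs replicate 1 or 2 or parental replicate 2. Of the LEF/TCF transcription factors tested LEF1 and TCF7 were called, in opposite directions. LEF1 was silent, as given above, while TCF7 had 19.3, 25.6 and 17.2 CPM in shJUNs, against 1.4, 3.94 and 3.11 CPM in parental cells (7.15-fold higher, adjusted p = 0.000146). Receptors diverged as well. FZD8 had 0.666, 0.801 and 3.35 CPM in shJUNs, against 79.2, 44.7 and 27.7 CPM in parental cells, and FZD1 had 31.7, 26.2 and 37.1 CPM in shJUNs, against 12.9, 12.1 and 9.61 CPM in parental cells. FZD8 was lower in every shJUNs library (adjusted p = 2.25e-06) and also low in shHIF2A, 0.998 ± 0.965 CPM, while FZD1 was 2.75-fold higher (adjusted p = 0.00259). The fold of FZD8 was 30.2-fold, or 65.9-fold without shJUNs replicate 3. PTK7 and ROR2, co-receptors of noncanonical signalling, were lower, PTK7 at 2.23 ± 0.776 CPM in shJUNs and 16.7 ± 2.6 CPM in parental cells (adjusted p = 9.3e-05). WLS, which carries Wnt proteins to the surface, was 4.27-fold lower at 5.4 ± 0.707 CPM in shJUNs and 23.2 ± 7.94 CPM in parental cells (adjusted p = 0.000228), and PORCN, which lipidates them, was lower too. Among ligands WNT7B had 15.3, 20.3 and 29.7 CPM in shJUNs, against 1.05, 0.281 and 1.98 CPM in parental cells (19.1-fold higher, or 32.8-fold without parental replicate 3, adjusted p = 7.09e-05).

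Of 47 TGF-β and BMP genes 4 were higher and 9 lower, 8.51% and 19.1%. The activin subunit INHBB had 55.2, 50.7 and 43.4 CPM in shJUNs, against 329, 210.3 and 238 CPM in parental cells, 5.2-fold lower without overlap (log2 difference -2.38 ± 0.21, SE, adjusted p = 3.8e-08). The ligand TGFB1 and its target PMEPA1 were 3.32-fold and 2.16-fold lower (adjusted p = 7.59e-05 and 4.56e-06), and SMAD2 and SMAD4, which carry the signal to the nucleus, were lower too. The BMP-responsive gene ID3 was 2.73-fold higher at 339 ± 40.1 CPM in shJUNs and 124 ± 42.6 CPM in parental cells (adjusted p = 4.8e-05). ID1 was called higher too, but parental replicate 1 had 57.9 CPM against 157 and 235 CPM in the others, and the call was lost without shJUNs replicate 1, 2 or 3 or parental replicate 2 (adjusted p = 0.0568 to 0.0794). The BMP antagonists split, CHRDL1 higher and NOG lower.

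Among 50 receptor tyrosine kinase genes and ligands 7 were higher and 10 lower, 14% and 20%. EGFR, its ligand TGFA and its feedback inhibitor ERRFI1 were all lower. EGFR lies in a part of chromosome 7 whose median difference was below 0, as given below. ERRFI1 had 114, 97.7 and 90.7 CPM in shJUNs, against 1183, 697 and 743 CPM in parental cells, 8.67-fold lower (log2 difference -3.12 ± 0.19, SE, adjusted p = 1.05e-10). TGFA had 89.6, 71 and 84.5 CPM in shJUNs, against 583, 321 and 287 CPM in parental cells, and EGFR had 150.4, 149 and 143 CPM in shJUNs, against 442, 274 and 264 CPM in parental cells. Parental replicate 1 was the highest for all 3, no libraries overlapped, and TGFA and EGFR were 4.85-fold and 2.21-fold lower (adjusted p = 0.000509 and 0.000848). shHIF2A had 59.3 ± 4.9 CPM of ERRFI1, lower than shJUNs (adjusted p = 0.00993), and 40.5 ± 13.4 CPM of TGFA, not called different (adjusted p = 0.108). KITLG, the ligand of KIT, had 88.5, 108 and 88.7 CPM in shJUNs, against 16.8, 18.3 and 14.4 CPM in parental cells (5.75-fold higher, adjusted p = 2.49e-07). The other derived lines lay between, at 41.2 ± 10.9 CPM in shHIF2A and 48.7 ± 14.6 CPM in shYAPTAZ. The Eph receptor EPHA4 and the ephrin EFNB2 were higher at 22 ± 1.22 CPM in shJUNs and 4.27 ± 2.52 CPM in parental cells and at 33 ± 5.95 CPM in shJUNs and 6.43 ± 4.32 CPM in parental cells (adjusted p = 0.000479 and 0.000314), with EFNB2 at 5.08-fold, or 8.32-fold without parental replicate 3.

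Downstream, 5 of 45 MAPK feedback and immediate early genes were higher and 8 lower, 11.1% and 17.8%. Beside DUSP1, the lower ones were EGR1, MYC, IER3, KLF6, GADD45B and the mRNA decay factors ZFP36 and ZFP36L1. KLF6 had 139, 134 and 151 CPM in shJUNs, against 364, 541 and 622 CPM in parental cells (3.61-fold lower, adjusted p = 8.66e-06), and ZFP36L1 had 561, 593 and 526 CPM in shJUNs, against 1007, 1392 and 1399.7 CPM in parental cells (2.26-fold lower, adjusted p = 2.74e-06). Both were lower without overlap. KLF10, a TGF-β-inducible repressor, went the other way, 3.45-fold higher at 102 ± 12.8 CPM in shJUNs and 29.4 ± 13.2 CPM in parental cells (adjusted p = 0.000804). In the Notch pathway 1 of 15 was higher and 1 lower (6.67% each). They were the ligand JAG1, 3.65-fold higher at 147 ± 20.9 CPM in shJUNs and 40.2 ± 9.65 CPM in parental cells (adjusted p = 4.85e-06), and the glycosyltransferase MFNG, 6.56-fold lower (adjusted p = 0.000654). Higher members numbered 2 without parental replicate 3, and that of lower members 2 without shJUNs replicate 3.

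**Figure D4:**
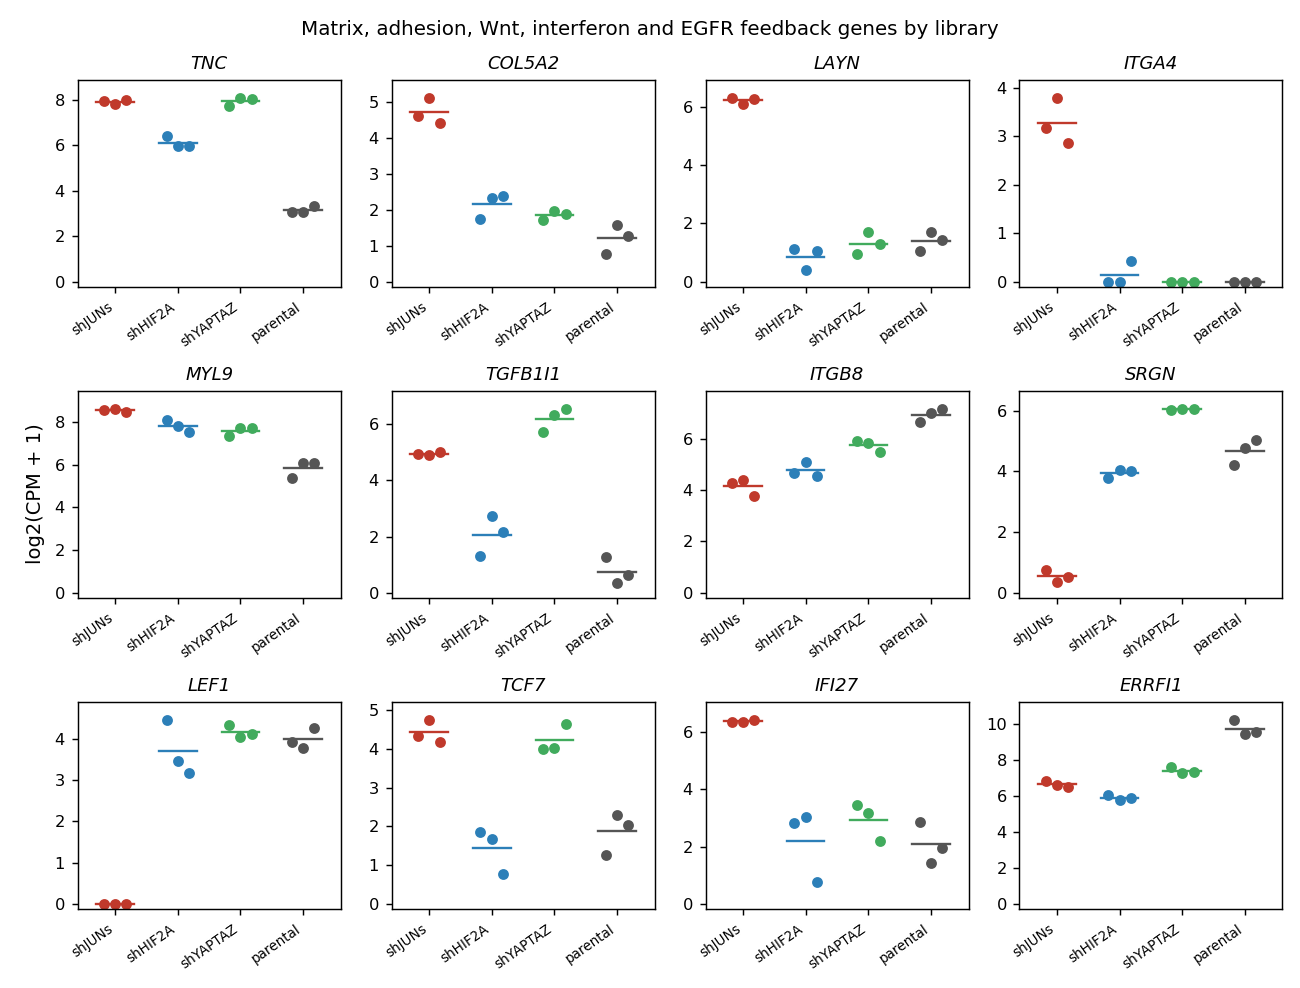
Levels of 12 matrix, adhesion, Wnt, interferon and EGFR feedback genes in all 12 libraries, as log2(CPM + 1); points are libraries, lines are group means, and each panel has its own scale with shJUNs at the left and parental cells at the right. LAYN, COL5A2, ITGA4 and IFI27 were higher in shJUNs than in each other group, LEF1 and SRGN lower, and TNC and TGFB1I1 were also high in shYAPTAZ.

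Cytokine, chemokine and receptor genes were called 16 higher and 7 lower of 79, 20.3% and 8.86%. The number of higher members was 10 without shJUNs replicate 3 and 9 without parental replicate 2, and that of lower members 4 without shJUNs replicate 1 or 2. Receptors IL7R and IL6R were near 0 in parental cells. IL7R had 20.6, 30.2 and 29.5 CPM in shJUNs, against 0, 1.12 and 2.26 CPM in parental cells, and IL6R had 13.5, 17.6 and 16.5 CPM in shJUNs, against 1.4, 1.41 and 0.565 CPM in parental cells. Both separated fully (adjusted p = 2.78e-06 and 1.08e-05), IL7R by 21.9-fold, or 41.3-fold without parental replicate 3. CSF1, the macrophage growth factor, was 2.85-fold higher at 218 ± 20.9 CPM in shJUNs and 76.2 ± 13.5 CPM in parental cells (adjusted p = 0.00018). ACKR3, a scavenger receptor of CXCL12 (ENSG00000144476, chromosome 2, 236567787 to 236582354), had 3.33, 2.67 and 0.223 CPM in shJUNs, against 118, 86.3 and 63.3 CPM in parental cells. It was 42.7-fold lower (log2 difference -5.42 ± 0.50, SE, adjusted p = 2.8e-07) and below each other group, with 10.1 ± 3.68 CPM in shHIF2A and 24.2 ± 9.76 CPM in shYAPTAZ. STC1 and PTGES, which make a secreted glycoprotein hormone and prostaglandin E2, fell to 3.73 ± 2.45 CPM and 1.99 ± 1.19 CPM in shJUNs, against 70.7 ± 40.1 CPM and 22.9 ± 8.24 CPM in parental cells (adjusted p = 2.58e-07 and 6.36e-05). STC1 was 18.6-fold lower, or 29.9-fold without shJUNs replicate 3, and PTGES 11.2-fold, or 16.8-fold without shJUNs replicate 1.

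The secreted semaphorins that were called were higher, and most of the membrane-bound ones lower. Of 42 axon guidance genes 8 were higher and 8 lower, 19.0% each, and the number of lower members was 5 without shJUNs replicate 2 or 3 or parental replicate 1. The secreted SEMA3A, SEMA3C and SEMA3E were all higher. SEMA3A had 37.1, 36.1 and 32.6 CPM in shJUNs, against 0.349, 1.12 and 1.7 CPM in parental cells (log2 difference 4.96 ± 0.47, SE, adjusted p = 1.07e-07), and SEMA3C had 125, 142 and 186 CPM in shJUNs, against 12.6, 29.5 and 23.2 CPM in parental cells (6.86-fold, adjusted p = 2.59e-05). The groups did not overlap for either. SEMA3A was at 13.7 ± 4.23 CPM in shHIF2A and 15.9 ± 6.36 CPM in shYAPTAZ, between shJUNs and parental cells. The membrane-bound SEMA4B, SEMA4C, SEMA5A, SEMA5B, SEMA6A and SEMA6B were lower and SEMA6D higher. SEMA6A had 24.6, 29.9 and 18.1 CPM in shJUNs, against 133, 168 and 139.6 CPM in parental cells (6.08-fold lower, adjusted p = 1.86e-06).

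Of 101 developmental transcription factors and chromatin organisers 9 were higher and 22 lower, 8.91% and 21.8%, at a median of -0.17. The lower count was 14 without shJUNs replicate 3, and the higher count 5 without shJUNs replicate 2. NR3C1, the glucocorticoid receptor, had 231, 186 and 156 CPM in shJUNs, against 714, 586 and 545 CPM in parental cells, 3.22-fold lower (log2 difference -1.69 ± 0.16, SE, adjusted p = 7.95e-08). LHX1, a factor of the early kidney, had 18.9, 14.4 and 19.7 CPM in shJUNs, against 90.7, 91.1 and 83.7 CPM in parental cells, 4.99-fold lower (adjusted p = 1.68e-06). No library overlapped for either, and LHX1 was also lower than in the other lines, which had 37.3 ± 9.61 CPM in shHIF2A and 56.6 ± 20.5 CPM in shYAPTAZ (adjusted p = 0.0134 for shJUNs against shHIF2A and 9.75e-05 against shYAPTAZ). RUNX1, RUNX2, AHR, RARA and ETS1 were lower too. GATA3, a factor of the distal nephron and of T cells, had 51 counts in shJUNs and 0 in parental cells, of which most lay in shJUNs replicate 2 (1.11, 9.88 and 2.01 CPM). SOX9 was called higher at 16.3 ± 5.41 CPM in shJUNs and 4.25 ± 2.39 CPM in parental cells (adjusted p = 0.0153) but lost without shJUNs replicate 3 or parental replicate 1 (adjusted p = 0.0752 to 0.0812).

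Renal lineage genes were called 5 higher and 4 lower of 33, 15.2% and 12.1%. CA2, a cytosolic carbonic anhydrase, had 110.5, 99.3 and 98.1 CPM in shJUNs, against 34.6, 38.5 and 37 CPM in parental cells (2.79-fold higher, adjusted p = 1.01e-05), while the membrane form CA12 had 55.9, 42.7 and 40.7 CPM in shJUNs, against 395, 269 and 185 CPM in parental cells (6.08-fold lower, adjusted p = 0.000133). Neither overlapped. CA12 lies on chromosome 15, whose median difference was below 0, as given below. VCAM1, an adhesion molecule of injured tubules and the ligand of the α4 integrin, was 3.45-fold higher at 89.2 ± 11.2 CPM in shJUNs and 25.7 ± 9.31 CPM in parental cells (adjusted p = 7.82e-05).

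Of 40 mitosis genes 0 were higher and 14 lower, 0% and 35%, with a median of -0.59, and of 40 S phase and replication genes 3 were higher and 0 lower (7.5% and 0%, median 0.05). The mitotic count was 7 without shJUNs replicate 1 and 9 without shJUNs replicate 2. In the 6 libraries alone 22 mitosis genes and 2 S phase genes were called lower. The number of higher S phase genes was 1 without shJUNs replicate 1 or 2 or parental replicate 2 or 3 and 0 without shJUNs replicate 3. CCNB2, a mitotic cyclin, had 71.9, 84.9 and 77.1 CPM in shJUNs, against 145, 175 and 189 CPM in parental cells (2.18-fold lower, adjusted p = 0.000545). KIF23, a motor of the central spindle, had 48.4, 50.5 and 54.3 CPM in shJUNs, against 101, 94.8 and 105 CPM in parental cells (1.96-fold lower, adjusted p = 0.000763). Both lie on chromosome 15, whose median difference was below 0, as given below. TOP2A and CENPF, on other chromosomes, were 1.62-fold and 1.93-fold lower (adjusted p = 0.00343 and 0.00285). CENPF lies among 41 genes of chromosome 1 with a median of −0.477. Without the 6 shifted chromosomes 9 mitosis genes were called lower, of fewer than 40, so that 9 cannot be set against 14. The part of such shifts in these falls was not tested. MKI67, CDK1, CCNA2, AURKB and BUB1 were among the lower ones. The share of cells in each phase was not measured.

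Interferon-stimulated genes were called 9 higher and 0 lower of 34, 26.5% and 0%, at a median of 0.23. The number of lower members was 1 without shJUNs replicate 1 or 2. IFI27 (ENSG00000165949, chromosome 14, 94104836 to 94116695) had 82.1, 80.7 and 84.5 CPM in shJUNs, against 6.28, 1.69 and 2.83 CPM in parental cells. It was even over the shJUNs libraries (log2 difference 4.55 ± 0.50, SE, adjusted p = 1.96e-06) and above each other group, with 4.65 ± 3.47 CPM in shHIF2A and 7.19 ± 3.26 CPM in shYAPTAZ. The fold was 23.4-fold, or 36-fold without parental replicate 1. ISG15, a ubiquitin-like protein, had 122, 119 and 128 CPM in shJUNs, against 18.5, 37.7 and 40.1 CPM in parental cells (3.8-fold, adjusted p = 2.31e-06), with 124 ± 2.11 CPM in shHIF2A and 45.6 ± 9.69 CPM in shYAPTAZ (adjusted p = 0.988 for shJUNs against shHIF2A and 8.04e-05 against shYAPTAZ). OAS1, OASL, IFI35, IFI44L, IFITM2 and SAMD9L were among the other rises. Of 40 p53 and apoptosis genes 4 were higher and 4 lower (10.0% each). The number of higher members was 2 without shJUNs replicate 2 or 3 or parental replicate 1 or 2. The higher ones included BID and TIGAR, and the lower ones were CDKN1A, GDF15, BBC3 and DDB2. TIGAR was lost without shJUNs replicate 2 or 3 or parental replicate 1 or 2 (adjusted p = 0.0641 to 0.103) and DDB2 without shJUNs replicate 2 or 3 or parental replicate 1 (adjusted p = 0.11 to 0.25). GDF15, a stress cytokine, had 52.1, 42.7 and 70.2 CPM in shJUNs, against 422, 280.04 and 188 CPM in parental cells (5.38-fold lower, adjusted p = 2.8e-07).

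Targets of the other factors studied in the series moved too. Of 39 HIF2A targets 1 was higher and 20 lower, 2.56% and 51.3%, at a median of -0.82. The higher one was STC2, a secreted glycoprotein, at 98.4 ± 15.1 CPM in shJUNs and 39.9 ± 9.3 CPM in parental cells (adjusted p = 0.0163), a call lost without shJUNs replicate 3 or parental replicate 2 or 3 (adjusted p = 0.0598 to 0.0757), which left 0 higher. DDIT4, an inhibitor of mTORC1, had 181, 200.3 and 136 CPM in shJUNs, against 2165, 1599 and 1409.6 CPM in parental cells (10.0-fold lower, adjusted p = 2.76e-05), with 139 ± 22.3 CPM in shHIF2A and 246 ± 110.1 CPM in shYAPTAZ. NDRG1, EGLN3, ADM, PLIN2, SLC2A1, SLC2A3, CCND1 and VEGFA were lower as well. Of 29 YAP/TAZ targets 3 were higher and 7 lower, 10.3% and 24.1%. AMOTL2 and LATS2, feedback inhibitors of YAP, were 2.58-fold and 2.32-fold lower (adjusted p = 1.98e-05 and 0.000723), while THBS1 was 2.75-fold higher at 344 ± 15.1 CPM in shJUNs and 125 ± 27.7 CPM in parental cells (adjusted p = 0.00104).

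Direct tests between the derived lines were made next. shJUNs differed from shHIF2A in 926 genes (7.53% of those tested), 536 (4.36%) of them higher and 390 (3.17%) lower in shJUNs. It differed from shYAPTAZ in 1985 (16.1%), 1017 (8.27%) of them higher and 968 (7.87%) lower. In 92 genes (0.748%) shJUNs was called higher than each of the other 3 groups and in 78 (0.634%) lower. The higher ones numbered 50, 50 and 53 without shJUNs replicate 1, 2 or 3, and the lower ones 42, 49 and 40. By distance to the nearest other group, the leading ones that averaged 10 CPM or more in shJUNs were LAYN, RHOF, GALNT5, TFCP2, IFI27, PYCARD, ALDH2 and COL5A2. LAYN, layilin, a membrane receptor for hyaluronan (ENSG00000204381, chromosome 11, 111540280 to 111561745), had 77.4, 66.5 and 76.7 CPM in shJUNs, against 1.05, 2.25 and 1.7 CPM in parental cells. The other lines had as little, 0.841 ± 0.461 CPM in shHIF2A and 1.53 ± 0.664 CPM in shYAPTAZ, and the difference to parental cells was 42.5-fold (log2 difference 5.41 ± 0.39, SE, adjusted p = 1.85e-09). ALDH2, the mitochondrial aldehyde dehydrogenase (ENSG00000111275, chromosome 12, 111766887 to 111817532), had 122, 107 and 123 CPM in shJUNs, against 4.19, 4.5 and 3.96 CPM in parental cells, with 2.55 ± 3.83 CPM in shHIF2A and 13.2 ± 2.55 CPM in shYAPTAZ. RHOF, a small GTPase of filopodia, had 59.7, 60.9 and 85.6 CPM in shJUNs, against 6.63, 1.97 and 2.26 CPM in parental cells, with 1.91 ± 0.835 CPM in shHIF2A and 2.01 ± 0.366 CPM in shYAPTAZ. Both were separated from each other group, ALDH2 by 27.5-fold and RHOF by 19.4-fold from parental cells (adjusted p = 6.41e-06 and 1.05e-07). The fold of RHOF was 32-fold without parental replicate 1. PYCARD, the inflammasome adaptor ASC, had 13.1, 11.2 and 13.2 CPM in shJUNs, against 1.05, 0.843 and 0 CPM in parental cells, with 0.815 ± 0.418 CPM in shHIF2A and 1.32 ± 0.938 CPM in shYAPTAZ (adjusted p = 0.00108 against parental cells). PYCARD was 19.4-fold higher, or 12.9-fold without parental replicate 3.

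On the lower side the 8 leading genes, each averaging 10 CPM or more in every other group, were LEF1, PTPRS, SRGN, TMEM98, MT1F, ACKR3, ADAMTS5 and JUND, in order of distance. Genes such as AUTS2, CCDC152 and CHST9 lay farther than several of these but had less than 10 CPM in at least 1 of the other groups. PTPRS, a receptor phosphatase that binds heparan sulfate, had 1.11, 0 and 0.223 CPM in shJUNs, against 29.3, 13.2 and 12.7 CPM in parental cells, with 15.3 ± 2.19 CPM in shHIF2A and 19.996 ± 6.88 CPM in shYAPTAZ. TMEM98 had 0.222, 0.534 and 0.447 CPM in shJUNs, against 5.24, 14.1 and 11.9 CPM in parental cells, with 14.5 ± 2.18 CPM in shHIF2A and 42 ± 7.1 CPM in shYAPTAZ. In both the shJUNs libraries were near 0 and the other 9 were not (adjusted p = 3.73e-06 and 1.96e-06 against parental cells). PTPRS was 36.5-fold lower, or 116-fold without shJUNs replicate 1. MT1F, a metallothionein, had 3.94 ± 1.96 CPM in shJUNs, with 43.2 ± 5.86 CPM in shHIF2A and 31.4 ± 10.2 CPM in shYAPTAZ and 20.02 ± 2.16 CPM in parental cells (adjusted p = 8.73e-05 against parental cells).

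Changes also ran along chromosomes or large parts of them. The median log2 difference was 0.290 over the tested genes of chromosome 12, 0.392 on chromosome 14, 0.339 on 16, 0.311 on 22 and 0.156 on 9, and −0.339 on chromosome 15, against 0.00 over all genes. On chromosome 9, runs of 41 neighbouring genes up to position 41057399 had medians of −0.362, −0.072 and −0.218. Later runs there had −0.135 to 0.384, and the one with TNC had 0.035. On chromosome 15, runs of 43 genes up to position 42491141 had −0.076 and −0.110. Later runs of 42 or 43 genes there had −0.542 to −0.244. Over the 5 raised chromosomes 456 of 2369 genes (19.2%) were called higher and 86 (3.63%) lower. On chromosome 15 there were 14 of 383 (3.66%) higher and 78 (20.4%) lower. Over all others 801 of 9549 (8.39%) were higher and 935 (9.79%) lower. Shares of genes at least 2-fold higher were 10.0% on the raised chromosomes and 4.79% on the others. Of the 92 genes above each other group 10 lay on chromosome 17, with 734 of the 12301 tested genes, and 16 on chromosome 12, with 641. Chromosome 12 also held 127 of the 1271 genes called higher in shJUNs than in parental cells. On chromosome 12 shHIF2A and shYAPTAZ had medians of −0.010 and −0.018 against parental cells. The shYAPTAZ line was shifted on some of the same chromosomes, with medians of 0.885 on chromosome 14, 0.329 on 16, 0.271 on 22 and −0.246 on 15, while shHIF2A lay at −0.008, 0.038, 0.085 and −0.116 there. Parts of other chromosomes stood apart as well, such as 40 genes near the end of chromosome 17 with a median of 0.770, among which lie ACTG1 and RBFOX3. On chromosome 7, 42 genes from position 43508728 to 56092996, EGFR and IGFBP3 among them, had a median of −0.397. At the end of chromosome X, 40 genes with FLNA among them had a median of 0.557. KRT8, KRT18, LIMA1, RHOF, ALDH2, KITLG, TFCP2 and ARHGDIB lie on chromosome 12, PAPLN and IFI27 on 14, MMP2, TGFB1I1, CDH13 and PYCARD on 16, TNC on 9, and MAFF, HMOX1 and WNT7B on 22. Apart from MAFF, which was lower, all of these were called higher. Other named genes on the raised chromosomes were called lower, among them MT1F on 16, PTGES on 9, MFNG on 22 and ZFP36L1 on 14. On chromosome 15 lie CA12, CTSH, SEMA4B, CCNB2 and KIF23, called lower, and CEMIP and THBS1, called higher. They were named for their calls, so the size of their differences beside the chromosome's median is no test. KRT19, SATB1, ITGA4, HNMT, LAYN, COL5A2 and LEF1 lie on none of the 6. COL5A2, however, lies among 40 genes of chromosome 2 with a median of 0.389. The same 40 genes had medians of 0.357 in shHIF2A and 0.522 in shYAPTAZ against parental cells. DNA copy number was not measured, and its part in these results was not tested.

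**Figure D5:**
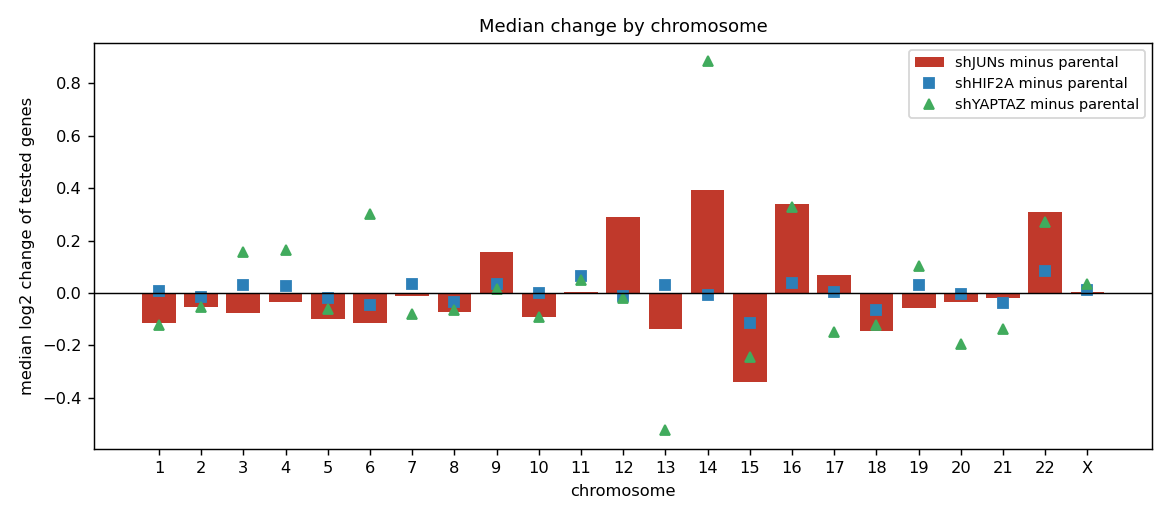
Median log2 change over the tested genes of each chromosome in shJUNs (bars), shHIF2A (squares) and shYAPTAZ (triangles), each against parental cells. In shJUNs chromosomes 12, 14, 16 and 22 lie at 0.290 to 0.392 and chromosome 15 at −0.339.

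Some of these genes share reads or sequence with others. Exons of CDH13, CEMIP, CENPV, DENND2A, EPHA4, IER3, ITGB6, ITGB8, JAG1, JUNB, KIF23, KITLG, KRT18, KRT8, LOXL2, MAFF, MYEOV, NEFL, PHLDA1, PMEPA1, RHOF, SATB1, SEMA6A, SPINT2, TCF7, TFPI2, TGFB1, TGFB1I1, THBS1 and TNC overlap exons of another counted gene, and the sources used here do not say whether strand was used in counting, so reads of the pair cannot be told apart. KRT8, KRT18, ACTG1, MT1F, IFITM2 and ABCC6 have close paralogs or pseudogenes. Levels and differences of both kinds are uncertain to that extent.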

How the data were processed

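Raw gene counts of 12 BRB-seq libraries were used as the authors deposited them. Reads were trimmed with Trim Galore and aligned with STAR to hg38, per the submitters' processing notes. The sources used here do not give the counting program, annotation release, use of strand or collapsing of molecular identifiers, so counts are not known to be independent molecules, and intervals cover counting error only. One gene broken over 3 lines was left out, 62702 genes were kept, and 62624 had a symbol in GENCODE release 29 or the tables used with it. Library totals were 2272459 to 4469956 counts.

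Counts were fitted with edgeR 4.0.16 (R 4.3.3; TMM scaling, filterByExpr, robust quasi-likelihood) over all 12 libraries with a mean per group, and p-values were adjusted by Benjamini-Hochberg over the 12301 genes tested. The common dispersion was 0.0628, a biological coefficient of variation of 25.1%. Alternatives were edgeR's RLE factors, DESeq2 1.42.0, limma-voom (limma 3.58.1), other filters, thinned counts, the 6 libraries alone, a replicate block, chromosomes left out and each library left out. The fit was tested on simulated counts.

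The members and lists were chosen with earlier results of these data known, so the counts over lists are descriptions and carry no test. Named genes are the shRNA targets, the 12 largest rises and falls above 10 CPM without overlap, the switched genes, up to 4 called members of each list in each direction with the smallest p, and the 8 genes on each side farthest from the nearest other group, with a mean of at least 10 CPM in shJUNs for rises and in each other group for falls. Some genes that this rule names are not reported here. Promoter and miRNA sequences are from RefSeq (GRCh38.p14).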

Additional observations from a re-analysis of the deposited data

How the results depend on the processing

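Of 209 named genes 181 kept their call under every alternative run for them, 28 lost it under at least 1, and 0 reversed. Over 10 settings other than leaving out a library the genes called higher numbered 878 to 1564 and those called lower 789 to 1383, with the lowest counts when chromosomes 9, 12, 14, 15, 16 and 22 were left out, an alternative chosen after seeing the data. Leaving out 1 library gave 846 to 1141 higher and 672 to 956 lower, and 552 to 737 and 388 to 571 at least 2-fold. JUN ranged over -0.91 to -0.745 and JUND over -3.291 to -3.123 on the log2 scale. JUNB ranged over -1.08 to -0.455 (adjusted p = 0.000115 to 0.2), and its call was also lost with limma-voom (-0.67, adjusted p = 0.0537), in the 6 libraries alone (-0.766, 0.0506) and without those 6 chromosomes (-0.713, 0.0532); the cause was not tested. Genes switched on numbered 25 to 55 with 1 library left out, 37 in thinned counts, 9 at a level of 10 CPM, 4 with a filter at a mean of 10 CPM over all libraries and 3 where no count was allowed. Genes switched off numbered 9 to 22, then 6 at 10 CPM, 4 with that filter and 3 with no count allowed. Leaving out a library of the low group, or thinning, makes it easier to stay at or under 3 counts, and a limit of 10 CPM or of no count is stricter. The cause of the fall to 9 genes switched off, without parental replicate 3, was not tested. Genes higher than in each other group numbered 139 with limma-voom and 50 to 88 with 1 library left out, and the lower ones 40 to 74. Of 992 list counts under alternatives 873 were within 1.5 times the reported count, and 68 of the other 119 arose when 1 library was left out. Some moved without those 6 chromosomes, whose genes then also leave the lists. Higher members then numbered 10 for cytokines, 3 for MAPK feedback, 2 each for hyaluronan and Notch, and 1 each for keratins and laminins. Lower members numbered 5 for axon guidance, 4 each for cytokines and proteases, 2 for other AP-1 subunits, and 0 each for Notch and cadherins.

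Between shJUNs and parental libraries, deviations from the group means correlated at 0.006 to 0.041 for the same replicate number and at -0.044 to 0.009 otherwise. Over all 12 libraries the ranges were -0.01 to 0.22 and -0.192 to 0.036, so the numbers were not taken to pair the libraries, although some with the same number deviated together. With the replicate number as a block 1564 genes were higher and 1329 lower, and 140 were higher than in each other group.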
